A study of Mus musculus with 16 samples.

Results

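The effect of deleting Cul4b was compared between mouse small-intestinal crypts and cultured intestinal organoids, gene by gene, as a difference of differences: the change from WT to knockout in crypts was set against the change from WT to knockout in organoids. The comparison used 12 of the 16 RNA-seq libraries of the study, namely 4 of WT and 4 of KO IEC crypts plus 2 of WT and 2 of KO CAG organoids, joined by Ensembl gene identifier. Of 52636 genes listed in the count tables, 12646 had enough counts to be tested in both experiments, and these are the genes described here. All mice had the C57BL/6 background. The KO IEC crypts came from pVillin-Cre; Cul4b fn/Y mice, in which the Villin promoter drives Cre in the intestinal epithelium. The WT crypts came from their wild-type controls, which the study gives as Cul4b fn/Y without naming Cre. As given, Cre and the loss of Cul4b go together in the crypts. Villi were scraped off before crypts were released with EDTA. The KO CAG organoids were CAG-CreERT2; Cul4b fn/Y cultures in which tamoxifen-activated Cre under a ubiquitous promoter deleted the gene, and the WT organoids were their controls; whether these controls carried CreERT2 or received 4-hydroxytamoxifen is not given in the labels. Most experiments used mice of 8 to 16 weeks, without an age for single libraries, and the methods call the libraries of a group biological replicates, without saying whether organoid libraries came from separate cultures. Tissue against culture, Villin-Cre against CreERT2, and long-standing against induced loss therefore cannot be told apart in any difference between the experiments.

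CUL4B is the scaffold of a cullin-RING ubiquitin ligase that marks proteins for degradation, together with DDB and receptor subunits. The small-intestinal epithelium renews itself from Lgr5-positive stem cells at the crypt base, where Paneth cells secrete antimicrobial peptides, and its daughter cells become absorptive enterocytes or secretory goblet, enteroendocrine and tuft cells. Organoids hold this epithelium without leukocytes, stroma or microbes.

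Interferon-stimulated genes formed one of the groups that were higher in both experiments, so the promoters of Oas3 and Rsad2, both members of that group, are shown from the RefSeq table of GRCm38.p6, each as 250 bases before to 50 after the start, 5′ to 3′ on the strand of the gene, with matches to GAAANNGAA on either strand in capitals. These letters are the core of the interferon-stimulated response element, to which interferon-activated transcription factors bind. In Oas3 (chr5:120777610-120777909, minus strand) 2 matches overlap, and Rsad2 (chr12:26456403-26456702, minus strand) holds 1, on the opposite strand.
Oas3: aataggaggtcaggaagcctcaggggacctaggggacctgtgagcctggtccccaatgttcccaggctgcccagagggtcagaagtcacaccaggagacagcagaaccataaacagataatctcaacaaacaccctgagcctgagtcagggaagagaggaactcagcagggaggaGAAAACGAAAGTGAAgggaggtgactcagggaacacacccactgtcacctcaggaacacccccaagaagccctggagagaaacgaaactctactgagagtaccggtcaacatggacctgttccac
Rsad2: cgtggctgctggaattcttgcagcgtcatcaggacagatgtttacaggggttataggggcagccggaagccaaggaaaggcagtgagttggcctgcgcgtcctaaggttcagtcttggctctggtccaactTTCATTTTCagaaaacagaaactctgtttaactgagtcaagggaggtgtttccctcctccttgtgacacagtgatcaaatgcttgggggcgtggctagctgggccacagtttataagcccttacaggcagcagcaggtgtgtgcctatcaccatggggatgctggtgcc
The motif was found in 9.76% of all 27025 promoters of the table, in 8.32% of the 9289 promoters of genes tested in both experiments, and in 14.04% of the 235 promoters found for genes higher in both. Of the 52 promoters found for the list of interferon-stimulated genes, 28 held it, including 11 of the 21 whose genes were higher in both. Without the members of that list the share among genes higher in both was 10.3%. A match is only a run of letters in this window.

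Depth ranged from 9311734 to 13479974 counts in the crypt libraries and from 7348191 to 10462275 in the organoid libraries. Cul4b itself (ENSMUSG00000031095), the deleted gene, was at 31.7, 33.2, 38.3 and 32.3 CPM (counts scaled to the depth of the library) in the 4 WT crypt libraries and 1.69, 0.993, 0.848 and 2.21 in the 4 KO IEC libraries, and at 72.9 and 70.1 in WT against 3.34 and 5.19 in KO CAG organoids. Each library thus matched its label, and the ranges were far apart. Its log2 fold change was -4.56 ± 0.25 (SE) in crypts and -4.02 ± 0.16 in organoids, and the difference of -0.52 ± 0.37 did not pass the test (edgeR, adjusted p = 0.486). Cul4a, the paralogous scaffold, had log2 fold changes of 0.01 ± 0.08 and -0.08 ± 0.08, and neither passed the test. Epithelial markers were high in all 12 libraries, with Epcam between 1000.5 and 1623 CPM. The 38 leukocyte markers summed to 411 to 1751 CPM in crypts and to 11.5 to 19.5 CPM in CAG organoids; Ptprc, which encodes the pan-leukocyte protein CD45, was highest in KO IEC crypt replicates 3 and 4 (30.4 and 30.8 CPM, against 5.94 to 17.5 in the other 6) and lay between 0 and 0.673 CPM in organoids. Mitochondrial ribosomal RNA (mt-Rnr1 plus mt-Rnr2) split the crypt libraries: 18.9 to 25.2 CPM in WT replicate 1 and KO IEC replicates 1 to 3, 834 and 1078 CPM in WT replicate 4 and KO IEC replicate 4, and 2840 and 2873 CPM in WT replicates 2 and 3. The 2 libraries of the last kind were both WT, so their deviation cannot be told apart from genotype.

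Within each experiment, edgeR's quasi-likelihood test called a gene at a Benjamini-Hochberg adjusted p under 0.05. In crypts 934 of 13427 tested genes were called (6.96%), 577 of them higher (4.3%) and 357 lower (2.66%) in the knockout. In organoids 4278 of 13598 were called (31.5%), 2455 higher (18.1%) and 1823 lower (13.4%). The biological coefficient of variation was 0.231 in crypts and 0.0815 in organoids. Among the 12646 genes tested in both, 299 were higher in both (2.36%), 143 lower in both (1.13%), 16 higher in crypts and lower in organoids (0.127%) and 14 lower in crypts and higher in organoids (0.111%). The CPM ranges of the genotypes did not overlap in either experiment in 266 of the 299 and 138 of the 143. Among all genes this held for 13.2% (18.0% in crypts and 69.9% in organoids taken singly). The classes were called on the same values, so separate ranges in them are no further support. Past a 2-fold change in both fits were 77 of the first class (0.609% of all genes), 7 of the second (0.0554%) and 4 of the fourth (0.0316%). Of the 554 genes that rose in crypts, 54.0% also rose in organoids, where 17.8% of all genes did. Of the 344 that fell in crypts, 41.6% also fell in organoids, against 13.7% of all genes. The signs were the same in 62.9% of all 12646 genes and in 80.6% of the 898 called in crypts. Across genes, which are not independent replicates and share their libraries, Pearson's r of the log2 fold changes was 0.404 and Spearman's rho 0.367.

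**Figure D1:**
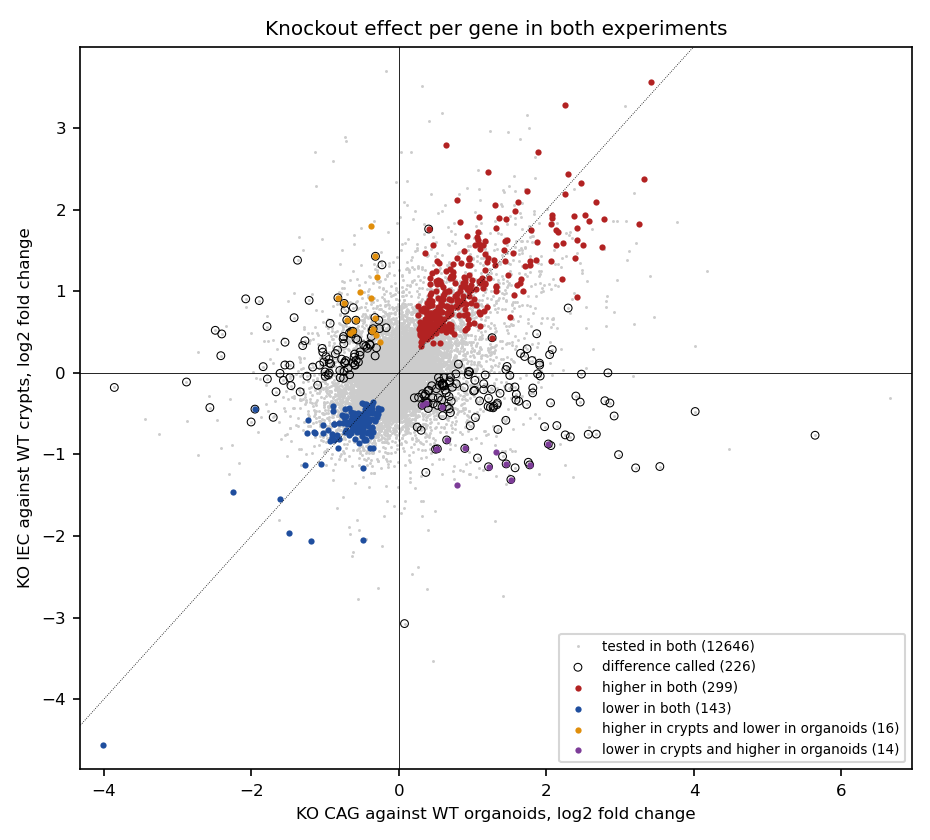
Each point is 1 of the 12646 genes tested in both experiments, with its log2 fold change in organoids (KO CAG against WT) on the horizontal axis and in crypts (KO IEC against WT) on the vertical axis; colours mark the 4 classes, open circles the 226 genes with a called difference, and the dotted line equal effects. Most called genes lie in the upper right (299) and lower left (143), and most open circles lie to the left or right, where the organoid effect is the larger.

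The difference itself was tested in 1 edgeR fit of all 12 libraries, as the crypt effect minus the organoid effect. It was called for 226 genes (1.79%), positive for 97 and negative for 129. In 187 of them the effects had opposite signs, and in 197 the organoid effect was the larger. Among all 12646 genes, 4687 had opposite signs, and in 6659 the organoid effect was the larger. Choosing genes by their difference favours opposite signs. The organoid effect was called on its own in 215 and the crypt effect in 35. The difference was called for 2 of the 299 genes higher in both and for 1 of the 143 lower in both. It was called for 10 of the 16 and 12 of the 14 in the opposite classes. The classes were set by the signs of the same values, so these counts were largely fixed beforehand and are no further support. This fit gives the experiments 1 shared spread per gene; limma voom with a variance for each experiment called 1173 genes, among them all of the 226.

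The calls in crypts lay close to the threshold: the median adjusted p of the 299 genes was 0.045. Leaving out WT crypt replicate 1, 2 or 3 or KO IEC replicate 2 or 3 took the class of genes higher in both from 299 to 13, 2, 7, 1 and 1 genes, and the class lower in both to Cul4b alone. Without WT replicate 4 the counts were 646 and 216, without KO IEC replicate 1 they were 746 and 337, and without KO IEC replicate 4 they were 121 and 83. Without both WT libraries above 2000 CPM of mitochondrial ribosomal RNA, Cul4b was the only gene called in crypts; all members of the 4 classes kept their direction in that fit, 297 of the 299 and 142 of the 143 at an unadjusted p under 0.05, where 12.3% of all genes tested in crypts had one. The members were chosen on the same libraries, so this does not count as a repeat. Within the libraries of low mitochondrial ribosomal RNA (WT replicate 1 against KO IEC replicates 1 to 3) the direction was the same in all 299 and all 143 genes, with medians of 0.82 and -0.68, and between WT replicate 4 and KO IEC replicate 4 it was the same in 299 and 142, with medians of 0.60 and -0.42. Over all tested genes the low libraries gave the sign of the whole crypt fit in 10643 of 12646 and the middle pair in 9625. These libraries also took part in choosing the members of the classes. The shared direction was therefore largely fixed beforehand and is no repeat either. For the difference, the count lay between 10 (without WT organoid replicate 1) and 510 (without KO IEC crypt replicate 4) when 1 library was left out. Every crypt and difference call named below shares these limits, and the p-values measure only the spread between these libraries.

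**Figure D2:**
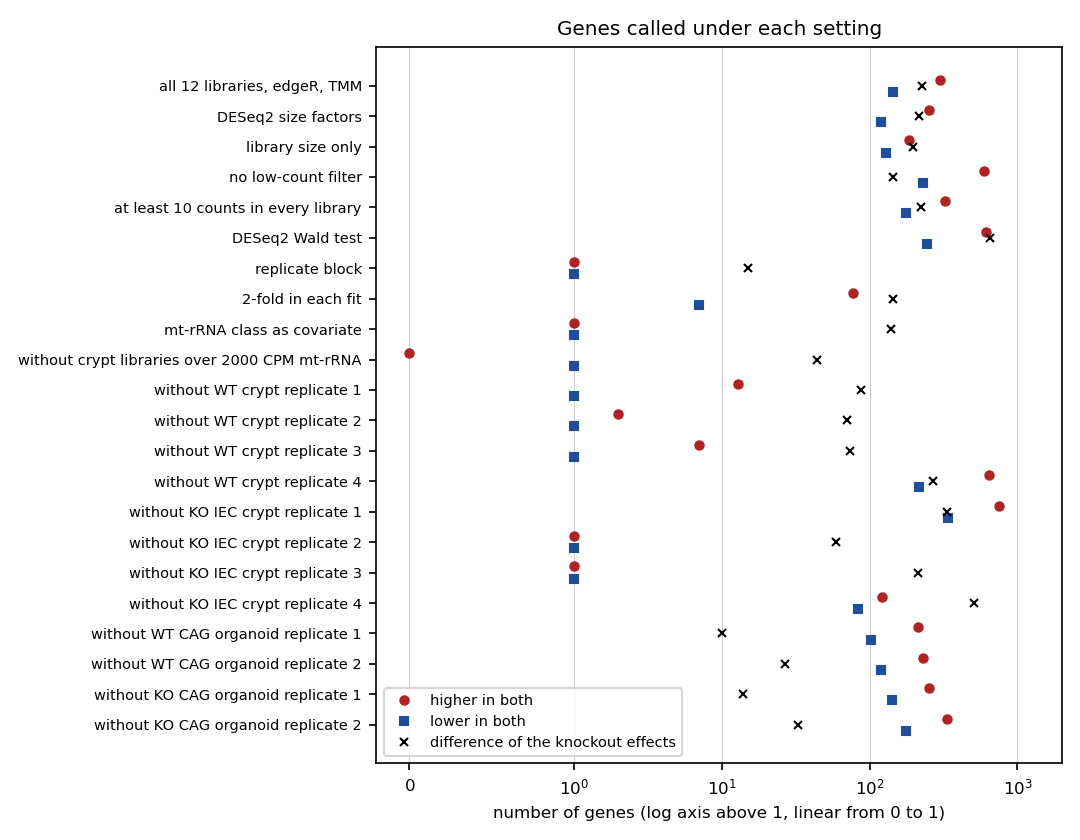
Number of genes higher in both (circles), lower in both (squares) and with a called difference (crosses) in the fit of all 12 libraries (top) and under each other setting or with 1 library left out. The first 2 classes drop to 13 genes or fewer in 8 settings, and the difference drops to between 10 and 33 genes without any 1 of the 4 organoid libraries.

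Genes that rose in both experiments included enzymes and receptors of the enterocyte surface. Among protein-coding genes whose CPM ranges did not overlap between genotypes in either experiment, the 8 with the largest smaller change were Cyp1a1, Cubn, Oas3, Pck1, Ifit1bl2, Areg, Gk and Ace. Ace, the brush border angiotensin-converting enzyme, was at 218, 138, 52.3 and 277 CPM in WT and 415, 598, 917 and 683 in KO IEC crypts, and at 55.4 and 62.5 in WT and 431 and 251 in KO CAG organoids. Its log2 fold change was 1.93 ± 0.45 in crypts and 2.53 ± 0.21 in organoids (edgeR, adjusted p = 0.0456 and 3.44e-05). Cubn, which encodes the cubilin receptor for vitamin B-12 bound to intrinsic factor, rose by 2.37 ± 0.48 and 3.32 ± 0.41 on the log2 scale, with 19.6, 9.62, 7.76 and 39.7 CPM in WT and 73.04, 142, 95.5 and 86.8 in KO IEC crypts and 1.93 and 1.17 against 21.4 and 10.6 in organoids. Every knockout library was above every WT library in both.

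Cyp1a1, a cytochrome P450 induced through the aryl hydrocarbon receptor, had CPM of 2.06, 0.660, 0.160 and 6.51 in WT crypts, 57.6, 16.3, 21.6 and 17.5 in KO IEC crypts, 0.964 and 1.17 in WT organoids and 5.98 and 16.2 in KO CAG organoids. KO IEC replicate 1 stood well above the other 3. The log2 fold changes were 3.56 ± 0.80 and 3.41 ± 0.52 (edgeR, adjusted p = 0.045 and 0.000935). Tiparp, another target of that receptor, rose in crypts by 0.65 ± 0.10 but had a log2 fold change of -0.27 ± 0.12 in organoids, which did not pass the test, and the difference of 0.91 was called (edgeR, adjusted p = 0.0282). Pck1, the cytosolic enzyme that commits carbon to gluconeogenesis, rose by 2.44 ± 0.45 in crypts and 2.29 ± 0.30 in organoids, and Gk, glycerol kinase, by 1.93 ± 0.48 and 2.08 ± 0.18. Areg, the EGF receptor ligand amphiregulin, rose by 2.10 ± 0.50 and 2.67 ± 0.14, and was at 1.43, 1.89, 0.480 and 2.73 CPM in WT and 3.59, 5.04, 11.5 and 7.997 in KO IEC crypts.

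**Figure D3:**
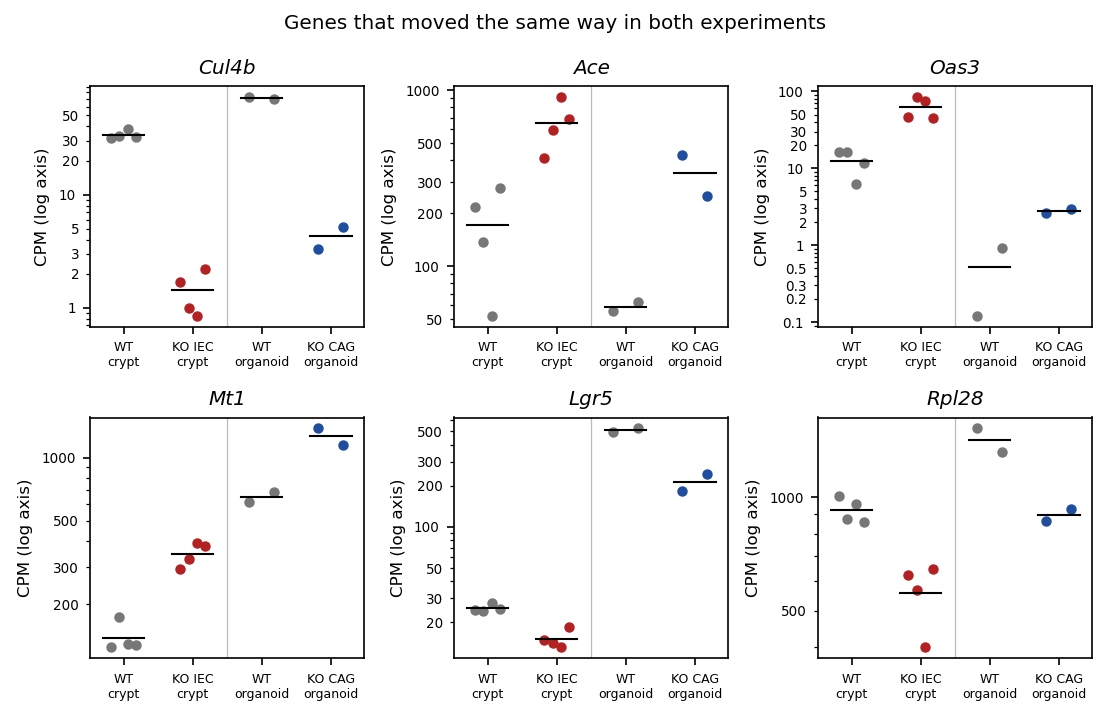
CPM of 6 genes in each library (log axis), with points for libraries and bars for group means; CPM were normalised separately in crypts and organoids. In each panel both knockout groups lie on the same side of their WT group without overlap, from Cul4b at 0.848 to 2.21 CPM in KO IEC crypts to Mt1 at 294 to 392 CPM.

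Absorptive genes rose together in organoids, and a smaller number of them passed the test in crypts. Among all genes tested in both experiments, 4.38% rose and 2.72% fell in crypts, and 17.8% rose and 13.7% fell in organoids. Of 24 genes of lipid absorption and chylomicron assembly tested, 21 rose in organoids and 5 in crypts, all 5 shared, and all 24 crypt values were positive (medians 1.02 in crypts and 1.10 in organoids, against -0.012 and -0.0028 over all 12646 genes). Dgat2, which makes triglyceride, was at 60.8, 31.01, 28.9 and 62.9 CPM in WT and 99.2, 129.7, 205 and 110.1 in KO IEC crypts and at 34.9 and 41.2 against 191 and 144 in organoids, with no overlap. Its log2 fold changes were 1.56 ± 0.32 and 2.13 ± 0.14 (edgeR, adjusted p = 0.0407 and 8.85e-06). Mttp, which loads lipid onto apolipoprotein B, rose by 1.27 ± 0.32 and 1.17 ± 0.11, although WT replicate 4 overlapped the KO IEC range in crypts. Apoa4, a chylomicron apolipoprotein, rose in organoids by 2.01 ± 0.13, and its crypt value of 2.01 ± 0.56 did not pass the test (edgeR, adjusted p = 0.0565).

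Of 21 brush border hydrolases tested, 18 rose in organoids and 2, Ace and Mgam, in crypts, with medians of 1.56 in crypts and 1.47 in organoids. Mgam, which digests starch, rose by 0.90 ± 0.22 and 0.41 ± 0.11. Alpi, the intestinal alkaline phosphatase, rose in organoids by 1.34 ± 0.13; its crypt values of 231, 135, 72.8 and 367 CPM in WT and 136, 416, 1711 and 384 in KO IEC overlapped and did not pass the test. Krt20, a keratin of mature enterocytes, rose in organoids by 1.96 ± 0.13 and had 1.08 ± 0.38 in crypts, not past the test. Of 21 sugar, peptide and amino acid transporters, 17 rose in organoids and 4 in crypts, with all 4 shared. Slc3a1, a subunit of the cystine and dibasic amino acid transporter, rose by 1.20 ± 0.24 and 0.95 ± 0.12, and Slc16a10, an aromatic amino acid carrier, by 1.10 ± 0.26 and 0.75 ± 0.10. Slc3a2, the heavy chain shared by several amino acid exchangers, rose by 0.61 ± 0.15 and 1.02 ± 0.11. Vil1, which encodes villin of the microvillus core, and Hnf4g, a transcription factor of enterocytes, also rose in both, by 1.00 and 0.91 in crypts and 0.69 and 0.53 in organoids. Vil1 is also the gene whose promoter drives Cre in the KO IEC mice. Without the 2 WT libraries above 2000 CPM of mitochondrial ribosomal RNA, the crypt medians were 0.57 for lipid absorption and 1.004 for the hydrolases, with all 45 values positive, and the crypt calls on both lists were lost.

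Interferon-stimulated genes rose in both experiments. Of 53 tested, 33 rose in crypts and 24 rose in both. In organoids 32 rose and 2 fell. Among all genes, 4.38% rose in crypts, 17.8% rose and 13.7% fell in organoids, and 2.36% rose in both. The medians of the list were 1.01 in crypts and 0.54 in organoids. Oas3, an oligoadenylate synthetase of antiviral defence, was at 16.3, 16.3, 6.16 and 11.6 CPM in WT and 46.8, 84.7, 74.7 and 45.4 in KO IEC crypts, and at 0.120 and 0.907 against 2.64 and 2.98 in organoids, where the lower WT value lies under the 3-count floor of 0.362 CPM for that library. Its log2 fold changes were 2.33 ± 0.32 and 2.46 ± 0.58 (edgeR, adjusted p = 0.0226 and 0.00958). No knockout library fell within the WT range. Rsad2, which encodes viperin, rose by 1.82 ± 0.39 and 2.06 ± 0.49, and Ifit1bl2, of the interferon-induced tetratricopeptide family, by 2.19 ± 0.40 and 2.25 ± 0.14. Samd9l rose in both, more in crypts (1.76) than in organoids (0.40), with a called difference of 1.35 (edgeR, adjusted p = 0.0479). Gvin1, a large interferon-inducible GTPase, differed most within the list: it fell in organoids from 94.8 and 42.5 to 5.28 and 4.33 CPM, while its crypt values of 11.6 to 32.6 CPM in WT and 18.1 to 27.02 in KO IEC overlapped. Its difference was 3.66 ± 0.58 (edgeR, adjusted p = 0.0147). Leaving out 1 crypt library left between 1 (without WT replicate 2 or KO IEC replicate 2 or 3) and 37 (without KO IEC replicate 1) of the crypt calls on this list, with 50 or 51 of 53 values positive throughout. Without the 2 WT libraries of high mitochondrial ribosomal RNA the crypt median was 0.92, and the crypt calls were lost. The summed leukocyte markers did not separate the genotypes in crypts, at 760, 1620.3, 594 and 782 CPM in WT and 411, 852, 1751 and 902 in KO IEC. Cd8a, a marker of cytotoxic T cells, was highest in KO IEC replicates 3 and 4 (37.8 and 17.7 CPM, against 1.52 to 10.9 in the other 6). In crypts 19 of the 27 markers tested there alone had positive values and 1 was called, downward; of the 5 tested in both experiments 2 were positive and 3 negative in crypts. In organoids the whole marker list summed to 12.2 and 11.5 CPM in WT and 19.5 and 18.9 in KO CAG, with Cd8a and Jchain at 0 in all 4 libraries. Their part in the result was not tested.

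Irgm1, an interferon-inducible GTPase, was at 50.8, 73.2, 42.9 and 38.99 CPM in WT and 60.8, 70.7, 56.8 and 47.3 in KO IEC crypts and at 20.00 and 20.3 against 23.9 and 21.1 in organoids, and its log2 fold changes of 0.20 ± 0.20 and 0.15 ± 0.14 did not pass the test (edgeR, adjusted p = 0.519 and 0.442). Of 25 genes of MHC class I and antigen processing, 16 rose and 3 fell in organoids, where 17.8% of all genes rose and 13.7% fell. In both experiments 3 rose, where 2.36% of all genes did. Among them were H2-Bl (2.71 ± 0.65 and 1.88 ± 0.20) and B2m, the shared light chain (0.75 ± 0.18 and 1.08 ± 0.12). H2 genes are close copies of one another, so reads may be split between them. Psme2, a proteasome activator subunit, rose in organoids by 1.03 ± 0.16, with -0.09 in crypts and a called difference of -1.13 (edgeR, adjusted p = 0.0445).

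Mt1, a zinc-binding metallothionein, gave one of the clearest shared rises. It was at 125, 174, 129 and 128 CPM in WT and 294, 327, 392 and 379 in KO IEC crypts and at 615 and 682 against 1375 and 1150.4 in organoids, with log2 fold changes of 1.33 ± 0.15 and 0.96 ± 0.11 (edgeR, adjusted p = 0.0182 and 0.000188). Each knockout library was well above the highest WT value of its experiment. Of the 9 metallothionein and zinc transporter genes tested, 5 rose in organoids and Mt1 alone in both; Slc30a2, a zinc exporter, rose in organoids by 1.87 ± 0.24 against 0.48 ± 0.13 in crypts, a called difference of -1.40. Angptl4, a lipase inhibitor and PPAR target, rose by 1.63 ± 0.30 and 1.08 ± 0.21. It was the only 1 of 36 genes of PPAR alpha and fatty acid oxidation to rise in both. In organoids 11 of these rose and 6 fell, where 17.8% of all genes rose and 13.7% fell.

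Genes that fell in both were led by Cul4b. After Cul4b the genes named were Epm2a, Rad51b, Cc2d2a, Mxd3, Scn2b and Zfp934. Rad51b, a gene of homologous recombination, was at 6.81, 5.66, 6.32 and 5.23 CPM in WT and 3.17, 3.21, 1.27 and 3.22 in KO IEC crypts and at 11.6 and 9.85 against 4.17 and 4.62 in organoids. It fell by 1.13 ± 0.28 and 1.28 ± 0.23 on the log2 scale (edgeR, adjusted p = 0.0483 and 0.00221), with KO IEC replicate 3 below the rest. Epm2a, the glycogen phosphatase laforin, had log2 fold changes of -1.54 ± 0.28 and -1.62 ± 0.37 at 1.69 to 2.73 CPM in WT crypts. The 27 stromal, endothelial, nerve, muscle and blood markers summed to 25.97 to 30.8 CPM in WT and 17.8 to 22.4 in KO IEC crypts. In organoids the order was the other way, at 29.995 and 28.5 CPM in WT and 37.95 and 31.8 in KO CAG. Their part in the result was not tested. Cc2d2a, of the ciliary transition zone, had -0.83 ± 0.16 and -0.93 ± 0.20; Mxd3, a MAX partner, -0.92 ± 0.21 and -0.82 ± 0.24; Scn2b, a sodium channel subunit, -0.81 ± 0.14 and -0.91 ± 0.20; and Zfp934, a zinc finger gene, -0.74 ± 0.18 and -1.03 ± 0.24. None of the 7 had overlapping ranges in either experiment.

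Of the lists examined, that of ribosomal protein genes held the most genes lower in both, and it was also the largest list. Of 79 cytosolic ribosomal protein genes, 36 fell in crypts and 70 in organoids. All 36 of the first were among the second, so that they made up 36 of the 143 genes lower in both. Among all genes, 2.72% fell in crypts, 13.7% in organoids and 1.13% in both. The medians were the same to 2 decimals, -0.56 in each experiment, and the crypt values were negative in 78. Rpl28 was at 1008, 873, 961 and 859 CPM in WT and 621, 569, 400.1 and 644 in KO IEC crypts and at 1519.6 and 1313 against 866 and 929 in organoids, with log2 fold changes of -0.73 ± 0.16 and -0.66 ± 0.10. Rpl36a had -0.63 ± 0.15 and -0.63 ± 0.11 (edgeR, adjusted p = 0.0462 and 0.00191). Reads of these genes can be shared with processed pseudogenes. Under another scaling, library size alone, the median in crypts was -0.64. The crypt calls on this list ended without WT replicate 1, 2 or 3 or KO IEC replicate 2 or 3, with medians between -0.58 and -0.44. Of 60 ribosome biogenesis genes, 57 had negative values in crypts (median -0.32) against a median of -0.04 in organoids, and Bop1, of the large-subunit assembly complex, had a called difference of -0.84, from -0.21 ± 0.11 in crypts and 0.63 ± 0.08 in organoids.

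Some cell division genes were called lower in both experiments, and most had negative values. Of all genes tested in both, 2.72% fell in crypts, 13.7% in organoids and 1.13% in both. Of 43 genes of mitosis and G2/M, 11 fell in crypts, 18 in organoids and 4 in both, among them Cdca3 (-0.70 ± 0.16 and -0.63 ± 0.13) and Nusap1 (-0.62 ± 0.16 and -0.70 ± 0.11), which act in mitotic entry and on the spindle. The medians were -0.48 and -0.37. Mki67, the proliferation marker, fell in organoids by 0.58 ± 0.11 and had -0.10 ± 0.19 in crypts, with 414 to 561 CPM in WT and 364 to 625 in KO IEC. Of 45 replication fork genes, 5 fell in crypts, 12 in organoids and 1, Rnaseh2a, in both (-0.78 ± 0.14 and -0.37 ± 0.11). Of 26 sterol synthesis genes, 4 fell in crypts, 15 in organoids and 3 in both, including Mvd (-0.72 and -0.74) and Acat2 (-0.43 and -0.67). Stard4, a sterol carrier, fell in organoids by 0.58 ± 0.09 and had 0.15 ± 0.09 in crypts, a called difference of 0.73. Pck2, the mitochondrial counterpart of Pck1, fell in both by 0.59 ± 0.13 and 0.62 ± 0.14.

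Among stem cell genes, Lgr5 fell in both experiments, and the difference was called for Tnfrsf19 and Slc14a1. Lgr5, the R-spondin receptor that marks crypt-base stem cells, was at 24.5, 24.2, 27.6 and 24.9 CPM in WT and 15.01, 14.1, 13.1 and 18.5 in KO IEC crypts, and at 494 and 524 against 184 and 245 in organoids. Every knockout library was below every WT library, with log2 fold changes of -0.74 ± 0.13 and -1.25 ± 0.13 (edgeR, adjusted p = 0.0379 and 9.27e-05). The difference of 0.51 ± 0.20 did not pass the test (adjusted p = 0.191). Fewer stem cells and less of the RNA per cell cannot be told apart in such bulk libraries, for this and for every other cell type list. Cdca7, the other of 36 stem cell genes to fall in both, had -0.48 ± 0.12 and -0.42 ± 0.11. Ascl2, a stem cell transcription factor, fell in crypts by 0.67 ± 0.17 and had 0.32 ± 0.16 in organoids, with a difference of -0.98 ± 0.26 that did not pass (edgeR, adjusted p = 0.0816). Olfm4 passed in neither experiment (-0.56 ± 0.20 and -0.11 ± 0.13). Tnfrsf19, a Wnt target known as Troy, rose in organoids from 2.77 and 4.54 to 15.7 and 20.5 CPM and had -0.78 ± 0.20 in crypts, a called difference of -3.09 ± 0.36 (edgeR, adjusted p = 0.00364). Slc14a1 also differed (-3.13), from 0 and 0.777 CPM in WT organoids to 2.09 and 3.17 in KO CAG organoids. In organoids 7 of the 36 rose and 13 fell, where 17.8% of all genes rose and 13.7% fell.

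Few genes were called in opposite directions. The 6 named by rule among the 16 that rose in crypts and fell in organoids were Kbtbd11, Mxi1, Irs2, Kif21b, Tet2 and Pde3a, and the difference was called in each. Tet2, a methylcytosine dioxygenase, was at 21.8, 25.7, 23.9 and 24.7 CPM in WT and 34.9, 34.7, 35.6 and 31.6 in KO IEC crypts but at 33.1 and 33.7 in WT and 23.2 and 20.3 in KO CAG organoids. The log2 fold changes were 0.51 ± 0.09 and -0.63 ± 0.13, and the difference was 1.13 ± 0.16 (edgeR, adjusted p = 0.00784). Ranges overlapped in neither experiment, and the 4 KO IEC libraries lay close together. Mxi1, an antagonist of MYC and a hypoxia target, rose by 0.85 ± 0.19 in crypts and had -0.74 ± 0.10 in organoids. Irs2, the insulin receptor substrate, had 0.65 and -0.71; Pde3a, a cyclic nucleotide phosphodiesterase, 0.49 and -0.67; Kif21b, a kinesin, 0.65 and -0.58; and Kbtbd11, a BTB-kelch protein, 0.92 and -0.83. All of the 16 changed by less than 2-fold in at least 1 experiment.

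Among the 14 genes that fell in crypts and rose in organoids, the rule named Scgn, Psrc1, Syp, Sarnp, Lgmn and Ptp4a3. Psrc1, a spindle protein on the list of p53 targets, was at 10.9, 9.80, 11.03 and 10.6 CPM in WT and 4.86, 5.04, 3.61 and 5.51 in KO IEC crypts, and at 24.6 and 23.6 in WT and 59.1 and 53.1 in KO CAG organoids. It had log2 fold changes of -1.15 ± 0.17 and 1.22 ± 0.11 and a difference of -2.37 ± 0.21 (edgeR, adjusted p = 0.00053). Ptp4a3, a phosphatase on the same list, was at 17.6, 16.5, 17.99 and 14.3 CPM in WT and 10.4, 8.17, 9.54 and 8.27 in KO IEC crypts and at 14.7 and 15.03 against 62.97 and 58.4 in organoids, with a difference of -2.90 ± 0.19 (adjusted p = 7.42e-05). In both genes the groups were separate and narrow in each experiment. Scgn, a calcium sensor of endocrine cells, had -1.31 ± 0.28 and 1.52 ± 0.23, and Syp, the vesicle protein synaptophysin, -1.13 ± 0.28 and 1.77 ± 0.33. Lgmn, a lysosomal protease, had -0.93 ± 0.20 and 0.89 ± 0.17. Sarnp stood apart: its organoid ranges overlapped (10.96 and 5.96 CPM in WT and 10.3 and 30.96 in KO CAG), and its difference of -2.26 did not pass the test (edgeR, adjusted p = 0.0643).

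**Figure D4:**
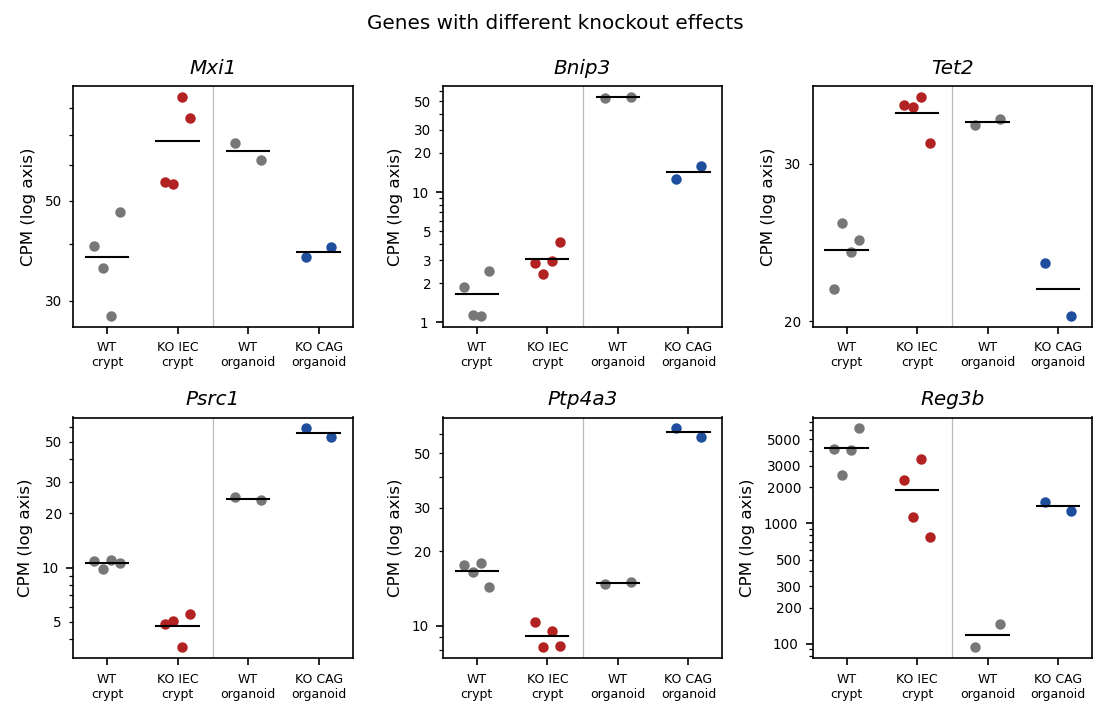
CPM of 6 genes in each library (log axis), with points for libraries and bars for group means; CPM were normalised separately in crypts and organoids. Mxi1 and Tet2 rose in KO IEC crypts and fell in KO CAG organoids, Psrc1 and Ptp4a3 did the reverse, and Bnip3 and Reg3b were called in organoids and for the difference (2.78 and -4.69) but not in crypts.

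Outside these classes, differences came mostly from large organoid effects beside small crypt effects. Bnip3, a mitophagy receptor induced by hypoxia, was at 53.1 and 53.8 CPM in WT and 12.7 and 15.8 in KO CAG organoids, and at 1.88, 1.13, 1.12 and 2.49 in WT and 2.85, 2.37, 2.97 and 4.14 in KO IEC crypts. The groups were well apart in organoids and overlapped in crypts, and the difference was 2.78 ± 0.41 (edgeR, adjusted p = 0.0101). Slc16a3, the lactate exporter of glycolytic cells, had 1.38 ± 0.38 in crypts and -1.37 ± 0.11 in organoids, Ppp1r3b, which targets a phosphatase to glycogen, 0.48 ± 0.35 and -2.40 ± 0.22, and Pbld1 0.91 ± 0.36 and -2.08 ± 0.16. Muc20, a membrane mucin at a low level, had 0.57 ± 0.25 and -1.79 ± 0.52. These 5 and Gvin1 had the largest positive differences outside the opposite classes, and none passed the test in crypts.

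Among protein-coding genes of at least 2 CPM in 1 genotype of each experiment, those named for the 4 classes aside, the largest negative differences were those of Icam1, Reg3b, Csf1, Krt15, Thbs1 and Dpysl3. Icam1, the adhesion molecule that leukocytes bind, had 1 count in each WT organoid library and 48 and 75 counts in the KO CAG libraries, a ratio of 54.9 (95% interval 14.9 to 458, counting error only), while crypts held 1.88, 2.36, 2.80 and 2.49 CPM in WT and 0.951, 1.45, 1.91 and 1.29 in KO IEC. Csf1, the macrophage growth factor, rose in organoids from 0.482 and 1.30 to 8.62 and 7.88 CPM and was at 1.79, 3.87, 2.72 and 1.53 in WT and 0.846, 1.07, 1.17 and 1.29 in KO IEC crypts, where its -1.16 ± 0.34 did not pass (edgeR, adjusted p = 0.0626). Thbs1, a matrix glycoprotein, had 2.68 ± 0.17 in organoids and -0.75 ± 0.25 in crypts, Krt15, a basal keratin, 2.92 ± 0.34 and -0.53 ± 0.33, and Dpysl3 2.86 ± 0.37 and -0.37 ± 0.21. All 6 rose in organoids, and all 6 crypt values were negative without passing the test. Choosing them by the size of the negative difference favours this pattern.

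Targets of p53, the transcription factor that responds to DNA damage, differed between the experiments. Of 29 tested, 24 rose in organoids, where 17.8% of all genes did, and the medians were 1.03 in organoids and 0.12 in crypts. The difference, called for 1.02% of all genes in this direction, was called for 13, all of them negative. Phlda3, an AKT inhibitor, was at 12.05 and 11.8 CPM in WT and 78.7 and 63.4 in KO CAG organoids and at 1.70, 0.848, 1.44 and 3.46 in WT and 2.11, 0.993, 0.530 and 0.827 in KO IEC crypts, a difference of -3.35 ± 0.63 (edgeR, adjusted p = 0.0324). Sesn2, a stress-induced sestrin, rose in organoids by 1.88 ± 0.10 and had -0.01 ± 0.16 in crypts. In crypts 4 members were called, Psrc1 and Ptp4a3 downward and Mdm2 and Tnfrsf10b upward, the last 2 named after their values were seen. Among all genes, 4.38% rose and 2.72% fell in crypts. Mdm2, the ubiquitin ligase that acts on p53, rose in both, by 0.43 in crypts and 1.26 in organoids, with a called difference of -0.83, and Tnfrsf10b, a death receptor, by 0.53 and 0.90. When 1 library was left out, between 3 (without either replicate 1 of the organoids) and 16 of the differences on this list were called.

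Hypoxia and HIF genes went the other way. Of 28 tested, 19 fell and 2 rose in organoids (median -0.69), while 3 rose in crypts (median 0.13). Among all genes, 13.7% fell and 17.8% rose in organoids, and 4.38% rose in crypts. The difference was called for 12, 11 of them positive, where 0.767% of all genes had a positive call. P4ha1, a collagen prolyl hydroxylase, fell in organoids from 41.3 and 42.4 to 14.3 and 21.1 CPM and was at 2.24, 1.70, 1.44 and 3.14 in WT and 3.70, 3.89, 3.71 and 4.50 in KO IEC crypts, a difference of 2.12 ± 0.36 (edgeR, adjusted p = 0.0218). The 3 that rose in crypts were Mxi1, Epas1 and Pfkfb3, the last named after its value was seen. Epas1, which encodes HIF-2 alpha, rose in both, by 2.79 ± 0.72 in crypts, where KO IEC replicates 1 and 3 (43.3, 11.2, 115 and 13.7 CPM over the 4) carried most of it, and by 0.64 ± 0.11 in organoids. Pfkfb3, a regulator of glycolysis, rose in crypts by 1.43 and fell in organoids (-0.32), a called difference of 1.75. Hif1a, named because it was the only difference on this list in the other direction, rose in organoids by 0.77 and had -0.01 in crypts. Without any 1 of the organoid libraries, between 1 and 4 of the 12 differences were called.

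Most enteroendocrine genes rose in organoids, and few of them were called in crypts. Of 31 tested in both, 28 rose in organoids (median 1.09), where 17.8% of all genes did. In crypts 21 values were negative (median -0.21) and 1 was called, Syp, which fell, as did 2.72% of all genes. The difference was negative in all 31 and called in 9, where 1.02% of all genes had a negative call. Chga, the granule protein chromogranin A, was at 94.1 and 103 CPM in WT and 299.9 and 260.1 in KO CAG organoids and at 77.5, 54.8, 67.2 and 106 in WT and 65.1, 71.2, 83.99 and 79.05 in KO IEC crypts, a difference of -1.54 ± 0.31 (edgeR, adjusted p = 0.035). The organoid groups were far apart, and the crypt groups overlapped. Cpe, a carboxypeptidase that processes prohormones, had 1.73 ± 0.10 in organoids and -0.39 ± 0.19 in crypts. Without WT organoid replicate 1 these differences were no longer called, and without any 1 of the other 3 organoid libraries 1 to 3 were.

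Paneth cell products showed the widest gap between list medians, -0.68 in crypts and 0.89 in organoids. Of 31 tested, 25 rose and 2 fell in organoids, where 17.8% of all genes rose and 13.7% fell. In crypts 25 values were negative and 1 gene, Reg3g, was called lower, where 2.72% of all genes fell. The difference was negative in 29 but called in 1, Reg3b, where 1.02% of all genes had a negative call. Reg3b, an antibacterial lectin, was at 4139, 2539, 4030.5 and 6130.5 CPM in WT and 2291, 1132, 3399.5 and 776 in KO IEC crypts and at 93.5 and 145 in WT and 1498 and 1273 in KO CAG organoids. The crypt ranges overlapped and the organoid ranges did not, and the difference was -4.69 ± 0.77 (edgeR, adjusted p = 0.0173). Reg3g, its close relative, fell in crypts from 2466, 1686, 3037 and 2808 to 1142, 993, 1289.8 and 429 CPM and rose in organoids from 49.4 and 33.9 to 75.9 and 68.7, but its difference of -2.17 ± 0.53 did not pass (adjusted p = 0.0616). Lyz1, the Paneth cell lysozyme, rose in organoids by 0.96 ± 0.11; in crypts it was at 4834, 3873, 7786 and 5389 CPM in WT and 3562, 2924, 825 and 2923 in KO IEC, and neither that change (-1.10 ± 0.40) nor the difference (-2.06 ± 0.63, edgeR, adjusted p = 0.112) passed. Wnt3, the Wnt ligand of Paneth cells, passed in neither (-0.61 and 0.53). Many of the list are alpha-defensin genes, near-identical copies among which reads may be split.

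**Figure D5:**
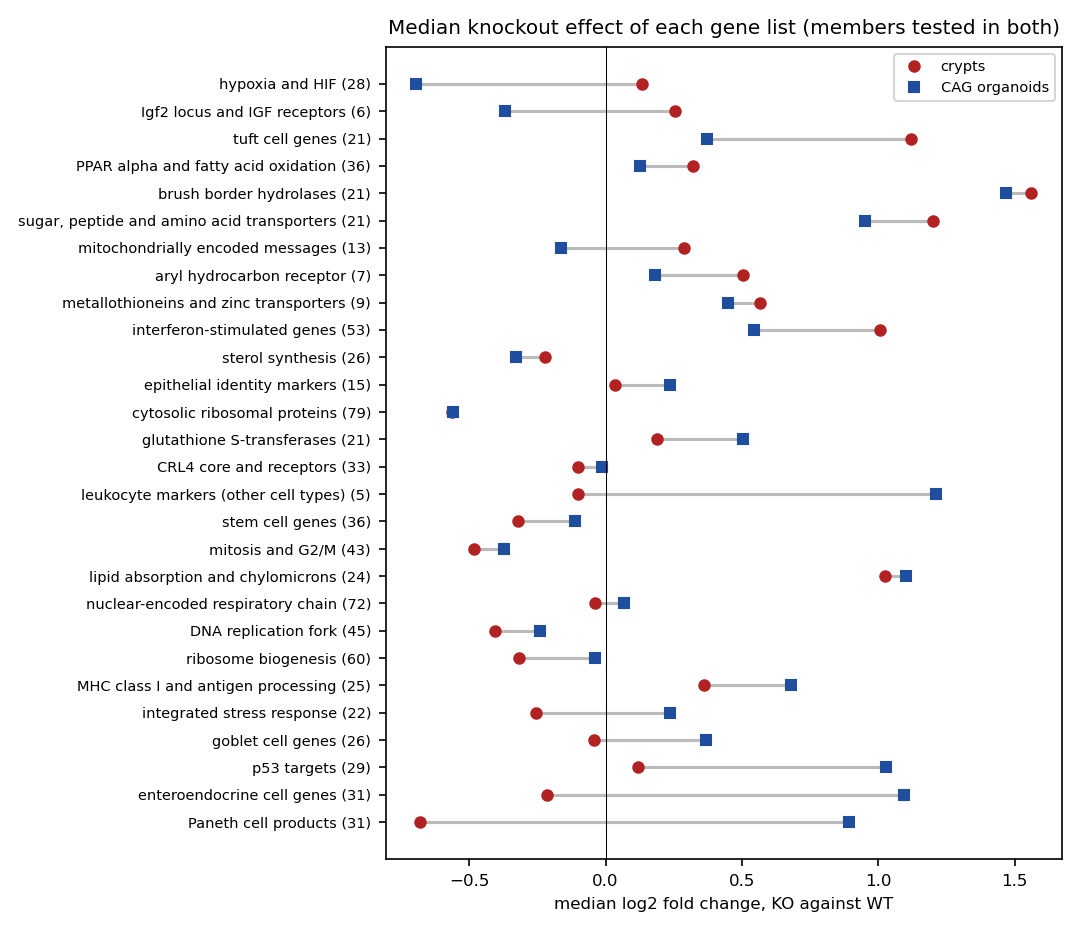
Median log2 fold change of each gene list in crypts (circles) and CAG organoids (squares), over the members tested in both (number in brackets), for the 28 lists with at least 5 such members, ordered by the median difference. Ribosomal protein genes coincide at -0.56, brush border hydrolases lie at 1.56 and 1.47, and the widest gap is that of Paneth cell products (-0.68 and 0.89).

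Other lists gave fewer shared calls. Of all genes tested in both, 4.38% rose and 2.72% fell in crypts, and 17.8% rose and 13.7% fell in organoids. Of 26 goblet cell genes, 13 rose and 4 fell in organoids; the differences of Muc4, a membrane mucin (1.92, from 0.38 in crypts and -1.54 in organoids), and Zg16, a granule lectin (-1.80, from 0.28 and 2.08), were called in opposite directions. Muc2, the secreted mucin of goblet cells, rose in organoids by 0.71 ± 0.10; its crypt CPM of 6.75 to 43.6 in WT and 5.33 to 32.3 in KO IEC overlapped, and the change of 0.01 ± 0.60 did not pass the test. None of 21 tuft cell genes was called in crypts by edgeR, although all had positive values (median 1.12); without KO IEC replicate 4 the median was 0.17, with 17 positive and 4 negative. In organoids 7 of them rose (median 0.37). Of 21 glutathione S-transferases, 12 rose and 1 fell in organoids. Of 22 genes of the integrated stress response, 7 rose and 3 fell in organoids. Of 33 CRL4 core and receptor genes, 2 fell in crypts and 5 in organoids, with Cul4b alone in both. The falls in organoids on these last 2 lists were near the share of all genes. Igf2bp2, a binding protein of Igf2 mRNA, fell in organoids (-0.73) and had 0.12 in crypts, a called difference of 0.86. Lyve1, on the list of stromal and endothelial markers, had 0.08 and -1.84 (difference 1.91), and Krt19, on the list of epithelial markers, -0.18 and 0.89 (difference -1.07).

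The 4 classes were then read in 2 WT and 2 KO IEC organoid libraries, in which Villin-Cre had deleted Cul4b and which neither experiment above had used. Only Cul4b was called there (1 of 12478 genes tested in all 3, 0.00801%), and edgeR's unadjusted p was under 0.05 in 4.63% of genes. The biological coefficient of variation was 0.28, above those of the crypt and CAG organoid fits. Genes are not independent replicates, and the counts below rest on 2 libraries of each genotype. Of the genes higher in both, 254 of 293 had positive values (86.7%, median 0.31), and of those lower in both 133 of 143 had negative values (median -0.30), where 49.0% of all genes were positive. Of the 16 genes higher in crypts and lower in CAG organoids, 14 were positive, the direction of the crypts. Of the 14 of the reverse class, 6 were positive and 8 negative. With the replicate number as a block in this fit, the counts were 249 of 293, 133 of 143 and 13 of 16 in these directions, and 3 positive against 11 negative in the reverse class. By list, 31 of 49 interferon-stimulated genes (median 0.145) and 26 of 29 enteroendocrine genes were positive, while the 79 ribosomal protein genes were all negative (median -0.29). Only 3 of 30 Paneth cell products and 2 of 36 stem cell genes were positive (medians -0.73 and -0.995). Of lipid absorption genes 21 of 24 were positive (median 0.26), of brush border hydrolases 11 of 19 (0.079), of transporters 14 of 21 (0.062) and of MHC class I genes 10 of 24 (-0.051). The sterol synthesis genes, of which 15 fell in CAG organoids, were positive in 24 of 26 (median 0.18), and p53 targets, with a median of 1.03 in CAG organoids, were positive in 14 of 29 (median -0.017). Of the 8 genes named first as higher in both, Oas3 was not tested here, Areg (-0.83 ± 0.21) and Ifit1bl2 (-0.16 ± 0.61) were negative, and the rest were positive. Rsad2 was also negative (-1.64 ± 0.59), at 0.69 and 0.73 CPM in WT and 0.24 and 0.20 in KO IEC organoids.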

How the data were processed

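Reads per gene were deposited as whole counts, 1 table for the crypt and 1 for each organoid experiment; per the processing notes of the submitters the authors aligned reads with HISAT2 2.0.5 and counted them with featureCounts 1.5.0-p3. The genome build and the use of strand in counting are not given in the sources used here. Samples were grouped by the labels into WT and KO IEC crypts (4 each) and WT and KO CAG organoids (2 each), with 2 WT and 2 KO IEC organoid libraries read separately. The members and gene lists were chosen with earlier results of these data known.

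Counts were fitted in R 4.3.3 with edgeR 4.0.16 (filterByExpr, TMM, quasi-likelihood F test, Benjamini-Hochberg, adjusted p under 0.05), each experiment alone and, for the difference, all 12 libraries with an interaction term. CPM were TMM-scaled within an experiment, so levels are not comparable between experiments. SE was taken from each log2 fold change and its F statistic. The study's methods used DESeq2 with a 2-fold limit, and both entered as alternatives (DESeq2 1.42.0), as did limma 3.58.1 voom, other scalings and filters, a replicate block, a mitochondrial ribosomal RNA covariate and leaving out libraries. Genes were named by rule: the protein-coding genes with the largest smaller change in each class, the largest other differences, list members with a call, and fixed genes of each cell type; 1 gene that the rule names is not reported here. The fits were tested on simulated data, in which the CAG organoid fit made more false calls than its nominal rate and the difference fit missed most 2-fold differences. Among the crypt and the CAG organoid libraries, compared within each experiment, none were duplicates. The libraries of the KO IEC organoid experiment were not compared in this way.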

Additional observations from a re-analysis of the deposited data

Results flagged for a closer look

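In 8 of 194 groups of 4 crypt libraries (4.12%), 1 library lay apart from the other 3 by Dixon's test, where chance gives about 5%. These were Cyp1a1 in KO IEC replicate 1 (57.6 CPM), Rad51b in KO IEC replicate 3 (1.27), Lgmn in WT replicate 3 (44.0), Pbld1 in WT replicate 4 (16.3) and KO IEC replicate 3 (37.2), Zg16 in KO IEC replicate 3 (1691), Acat2 in KO IEC replicate 2 (46.6) and Mt1 in WT replicate 2 (173.7). KO IEC replicate 3 gave 3 of the 8.

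The knockout effect differed between crypts and CAG organoids for 226 genes by the interaction term of edgeR, 44 of them named in the text. The crypt effect was the higher one, in log2 units, for Gvin1 (3.66), Pbld1 (2.98), Ppp1r3b (2.90), Bnip3 (2.78), Slc16a3 (2.76), Muc20 (2.37), P4ha1 (2.12), Muc4 (1.92), Lyve1 (1.91), Pfkfb3 (1.75), Kbtbd11 (1.74), Mxi1 (1.59), Samd9l (1.35), Irs2 (1.35), Kif21b (1.22), Pde3a (1.16), Tet2 (1.13), Tiparp (0.91), Igf2bp2 (0.86) and Stard4 (0.73). It was the lower one for Icam1 (-6.42), Reg3b (-4.69), Csf1 (-4.37), Krt15 (-3.45), Thbs1 (-3.44), Phlda3 (-3.35), Dpysl3 (-3.23), Slc14a1 (-3.13), Tnfrsf19 (-3.09), Syp (-2.91), Ptp4a3 (-2.90), Scgn (-2.82), Psrc1 (-2.37), Cpe (-2.12), Sesn2 (-1.89), Lgmn (-1.83), Zg16 (-1.80), Chga (-1.54), Slc30a2 (-1.40), Psme2 (-1.13), Krt19 (-1.07), Bop1 (-0.84), Mdm2 (-0.83) and Hif1a (-0.78). The Icam1 value rests on 1 count in each WT organoid library.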

How the results depend on the processing

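With 1 library left out, the number of genes called in crypts ran from 2 to 2468 (934 with all) and in organoids from 2789 to 5177 (4278). The count higher in both ran from 1 to 746, that lower in both from 1 to 337, those of the opposite classes from 0 to 50 and from 0 to 45, and the called differences from 10 to 510. Library size alone gave 184 higher in both and 10 higher in crypts and lower in organoids. Without a filter on low counts there were 1479 crypt calls, 590 higher and 229 lower in both, 38 and 24 in the opposite classes and 143 differences. DESeq2 gave 2490 crypt and 2761 organoid calls, 610 higher and 246 lower in both, 48 and 21 in the opposite classes and 654 differences. Past 2-fold there were 240 and 1169 calls, 77, 7, 0 and 4 in the classes and 145 differences. With the mitochondrial ribosomal RNA class as covariate there were 2 crypt calls, 1, 1, 0 and 0 in the classes and 139 differences. Without the 2 WT crypt libraries over 2000 CPM the edgeR counts were 1, then 0, 1, 0 and 0, and 44 differences, with 1726 genes of the crypt fit at an unadjusted p under 0.05. Voom with a variance for each experiment gave 1173 differences. In every setting the 58 named crypt calls and 44 named differences that could be fitted kept their direction.

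Replicate numbers were not taken to pair the samples: same-number correlations were -0.04, 0.19, -0.40 and 0.43 in crypts, 0.067 in CAG organoids and 0.34 in IEC organoids, where 2 pairs are too few to decide. With a replicate block there were 4 crypt calls, 1, 1, 0 and 0 genes in the classes and 15 differences.

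Uncalled crypt values near 0 changed sign: Zg16 to -0.064 with the covariate and -0.0039 without the 2 libraries; Sesn2 to 0.0010 with DESeq2 size factors and 0.0046 with its test, and Hif1a to 0.0016 and 0.0019, and to 0.13 with the covariate and 0.12 without the 2 libraries; Lyve1 to -0.0044 by library size, -0.099 and -0.096; Cul4a to -0.073 by library size and -0.0062 without a filter, and Muc2 to -0.083 and -0.00057; Chga to 0.0043 under the block; and Mki67 to 0.017 and 0.084. With 1 library left out, the crypt values ran from -0.16 to 0.19 for Chga, -0.0084 to 0.066 for Cul4a, -0.054 to 0.072 for Hif1a, -0.017 to 0.17 for Lyve1, -0.28 to 0.0082 for Mki67, -0.29 to 0.68 for Muc2 and -0.11 to 0.089 for Sesn2, and the organoid value of Olfm4 from -0.30 to 0.094.

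Depth limits genes near 1 count per library, such as Icam1 in WT organoids, and 2 libraries a group limit the organoid and difference fits. The cause of the lost crypt calls was not tested.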
